A study of Mus musculus with 6 samples.

Results

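Receptor-type protein tyrosine phosphatases are membrane enzymes that remove phosphate from tyrosines of other proteins, and many of them carry adhesion-type domains outside the cell. The 10 members described here, Ptprk, Ptprm, Ptprt, Ptprn, Ptprn2, Ptprd, Ptprf, Ptprs, Ptprj and Ptprg, were read by every probe set whose platform symbol is exactly 1 of these names. This gave 33 probe sets for 9 of the 10 genes, of 18193 genes in all, and Ptprt was not analysed here. The members were chosen by the differences between Tead1KO and Flox islets on these same arrays, in which Ptprk and Ptprm went in opposite directions. The members' differences between these groups are therefore given as a description, and nothing is read from tests of them.

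Islets of Langerhans came from 12-week-old male C57Bl6 mice. In the Tead1KO group (3 arrays) Tead1, a DNA-binding factor of the Hippo pathway, was deleted in beta cells, and the Flox group (3 arrays) held flox mice as controls. The labels do not name the Cre driver, do not say whether controls carried Cre, and do not tie arrays to single mice, so the p-values reflect the spread among arrays of a group, part or all of which may be technical. Each array gave 1 log2 signal per probe set, and the number of arrays limits the precision.

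Ptprk, Ptprm, Ptprt and Ptpru form a subfamily with an extracellular MAM domain. They bind the same protein on a neighbouring cell and act on junction proteins such as catenins. Ptprd, Ptprf and Ptprs are the LAR-type members, which bind synaptic adhesion proteins and heparan sulfate proteoglycans. Ptprn and Ptprn2 sit in the membrane of dense-core secretory granules, lack ordinary phosphatase activity, and are islet autoantigens in type 1 diabetes. Ptprj is a receptor with fibronectin repeats that acts on growth factor receptors, and Ptprg has a carbonic anhydrase-like domain that binds contactins.

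The arrays were not alike. Tead1KO replicate 3 had the highest signal of the spiked hybridization controls (13.2, against 10.6 to 12.1 on the others), the narrowest interquartile range of all probe sets (2.65, against 2.99 to 3.32) and the lowest mean correlation with the other arrays (0.969, against 0.984 to 0.986). Bacterial control transcripts, taken here as absent from the spike-in mix, gave signals between 2.87 and 4.70, which is called background here. The sources used here do not state that they were absent. The brighter Tead1 probe set differed by -0.49 (exact permutation p = 0.4, two-sided, where 0.1 is the smallest possible), and Tead1KO replicate 2 was the brightest of the 6 arrays there (7.49, against 6.99 to 7.40 in Flox). The dimmer Tead1 probe set differed by -0.21 (exact permutation p = 0.7), and the groups overlapped in both probe sets. The sources used here do not say whether these probe sets lie in the deleted part of Tead1, so they do not check the labels.

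The promoters of Ptprk and Ptprm are shown because these genes had the largest differences among the members, and because Tead factors bind the letters CATTCC, the core of the M-CAT element. Each sequence runs 5′ to 3′ on the gene's strand, from 250 bases before to 50 bases after a transcript start listed by RefSeq (GRCm38.p6), with CATTCC or its reverse complement GGAATG in capitals. Ptprk lies on the plus strand at chr10:28074570-28074869, and Ptprm on the minus strand at chr17:67354410-67354709.
Ptprk: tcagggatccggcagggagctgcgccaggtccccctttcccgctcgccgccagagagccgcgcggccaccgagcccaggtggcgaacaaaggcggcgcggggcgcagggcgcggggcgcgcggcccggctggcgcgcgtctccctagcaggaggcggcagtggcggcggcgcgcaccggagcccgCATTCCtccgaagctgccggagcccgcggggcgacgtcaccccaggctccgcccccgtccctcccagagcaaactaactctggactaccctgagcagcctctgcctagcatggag
Ptprm: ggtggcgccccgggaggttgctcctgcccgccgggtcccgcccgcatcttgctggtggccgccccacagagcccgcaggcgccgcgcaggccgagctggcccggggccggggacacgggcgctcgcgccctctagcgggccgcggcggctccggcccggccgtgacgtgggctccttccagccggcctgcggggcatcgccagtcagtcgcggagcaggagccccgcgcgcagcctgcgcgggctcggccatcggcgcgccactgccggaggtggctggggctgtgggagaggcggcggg

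Of the 10 members, 9 had a RefSeq promoter entry, 13 windows in total, and Ptprd had none. CATTCC or GGAATG was found in 2 of the 13 windows, in that of Ptprk at position -65 from the listed start and in 1 of the windows of Ptprs at position -160. Of all 32851 windows of the same length, 14.7% held it. The letters do not occur in this Ptprm window. The members' windows were rich in G and C, with a median of 65.7% against 52.7% over all windows, and 12 of the 13 lay above that overall median. The Ptprk window had 75% and the Ptprm window 80.7%.

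Ptprk, whose product has been linked to cell-cell adhesion and to TGF-beta and EGF receptor signalling, read higher in Tead1KO islets. Its brightest probe set (1423278_at) read 8.72, 7.64 and 7.92 in Flox replicates 1 to 3 and 10.35, 10.11 and 10.32 in Tead1KO replicates 1 to 3. The Flox arrays spread over more than a log2 unit while the Tead1KO arrays lay close together, and the groups did not overlap. The means were 8.09 ± 0.56 and 10.26 ± 0.13 (SD, n = 3 each), a log2 difference of 2.17 (SE 0.27, the moderated standard error of limma's fit over all probe sets, as for all members), or 4.50-fold. Among all genes, 22 had a larger positive difference.

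A second bright Ptprk probe set (1423277_at) read 6.46, 6.55 and 6.17 in Flox and 9.07, 8.93 and 8.52 in Tead1KO. Here the Flox arrays were tight, and every Tead1KO array lay far above them. Its log2 difference was 2.45 (SE 0.20), or 5.45-fold. The 5 dimmer Ptprk probe sets gave smaller differences.

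Probe set 1444763_at lay within background in Flox (4.28, 4.10 and 3.94) and above it in Tead1KO (5.68, 6.06 and 5.36). Against the highest background value this is at least 2.0-fold higher. Probe set 1441277_s_at, whose suffix marks probes that can match several transcripts, likewise went from background (4.36, 4.27 and 4.30) to 5.30, 5.61 and 5.20, at least 1.59-fold higher.

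Probe set 1431680_a_at lay just above background in both groups and differed by 0.36 (SE 0.14), without overlap of the arrays. The last 2 probe sets had means within background in both groups, with differences of 0.90 and -0.07. So 6 of the 7 Ptprk probe sets had arrays that did not overlap, all higher in Tead1KO. These include 1441276_at, whose means lay within background in both groups, as did those of the seventh. Over all probe sets, the arrays of the groups did not overlap in 10.5%. Ptprk was chosen by this contrast and its probe sets were read on the same arrays, so nothing is read from the count.

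Ptprm is also a homophilic adhesion receptor, best known from endothelium, and it binds cadherin complexes. It was read by 1 probe set (1422541_at), with 8.36, 8.38 and 8.10 in Flox and 7.10, 7.25 and 6.98 in Tead1KO. All 3 Tead1KO arrays lay below all 3 Flox arrays, and the spread within each group was small. The means were 8.28 ± 0.15 and 7.11 ± 0.14 (SD, n = 3 each), a log2 difference of -1.16 (SE 0.17), or 2.24-fold lower. Among all genes, 87 had a more negative difference. With a single probe set, no second reading of Ptprm was at hand.

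Set against the mean of the Flox arrays, Tead1KO replicates 1, 2 and 3 stood at 2.26, 2.02 and 2.23 for Ptprk and at -1.17, -1.02 and -1.30 for Ptprm. The opposite directions were thus present on each Tead1KO array, including replicate 3. Without replicate 3 the differences were 2.14 and -1.10. The pair was chosen by this contrast on the same arrays, so nothing is read from the agreement of directions.

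**Figure D1:**
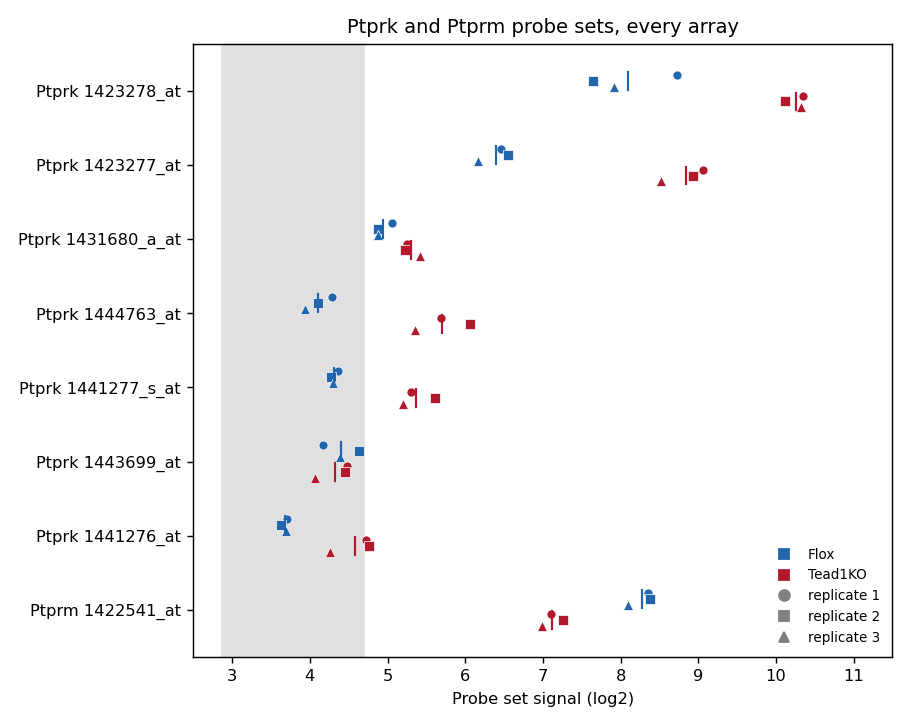
Log2 signal (x axis) of the 7 Ptprk probe sets and the Ptprm probe set (rows); each point is 1 array, in blue for Flox and red for Tead1KO, with a symbol for each replicate and a tick at each group's mean, over a grey band for background (2.87 to 4.70). The groups are separate for the bright Ptprk probe sets, with Tead1KO higher, and for Ptprm, with Tead1KO lower, while the dimmest Ptprk probe sets lie in or near the band.

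In the limma fit over all genes, with the brightest probe set of each, 2 of the 9 measured members passed an adjusted p under 0.05, Ptprk higher and Ptprm lower. Of all genes, 0.517% passed, 0.335% higher and 0.181% lower. Since this contrast chose the members, nothing is read from the count or from the calls that follow. Over all 45037 probe sets 0.18% passed, 0.131% higher and 0.0488% lower, and 3 Ptprk probe sets were among them while the Ptprm probe set was not. Ptprk was no longer among the called genes without Flox replicate 2, Flox replicate 3 or Tead1KO replicate 1. Ptprm was not among them without Flox replicate 1, 2 or 3 or Tead1KO replicate 1, nor with median centring of the arrays or with the replicate number as a block. Both kept their direction under every alternative run, and nothing is read from that either.

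The LAR-type members differed by less than 0.5 at their brightest probe sets, and not all in 1 direction. Ptprf, a broadly expressed epithelial phosphatase that can act on the insulin receptor, read 11.66, 11.57 and 11.60 in Flox and 11.34, 11.45 and 10.98 in Tead1KO. The Tead1KO arrays all lay lower, with a log2 difference of -0.35 (SE 0.16). Its other probe sets differed by -0.45 and -0.12, with overlapping arrays.

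Ptprs, a receptor for heparan and chondroitin sulfate proteoglycans, lay on the other side of 0. Its brightest probe set read 7.0, 6.90 and 6.92 in Flox and 7.51, 7.12 and 7.54 in Tead1KO, a log2 difference of 0.44 (SE 0.18). Tead1KO replicate 2 lay near the Flox arrays, but above them. The other 3 Ptprs probe sets differed by 0.27, 0.13 and 0.01 with overlapping arrays, and the average of the 4 was 0.21.

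Ptprd, which organises synapses in neurons, was read by 7 probe sets, of which 4 lay within background in both groups. The 3 brighter ones differed by 0.21, 0.29 and 0.51. In the last of these the groups did not overlap (6.34, 6.36 and 6.30 in Flox, 6.51, 7.22 and 6.81 in Tead1KO). Tead1KO replicate 2 was the highest array in all 3, and without it the difference of the brightest probe set was 0.052 in place of 0.21.

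The granule members Ptprn and Ptprn2 were bright and nearly level between the groups. Ptprn read 11.26, 11.43 and 11.30 in Flox and 11.44, 11.32 and 11.13 in Tead1KO, a log2 difference of -0.04 (SE 0.14). The arrays overlapped, and the sign changed with quantile normalization, with the control signal as a covariate, or without Flox replicate 2 or Tead1KO replicate 3. Ptprn2 read 13.76, 13.82 and 13.85 in Flox and 13.65, 13.80 and 13.54 in Tead1KO, a log2 difference of -0.15 (SE 0.11), and its dimmer probe set differed by -0.13.

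Ptprj and Ptprg were dim. The 1 Ptprj probe set above background read 5.82 to 5.88 in Flox and 5.50 to 5.91 in Tead1KO, a log2 difference of -0.15 (SE 0.16). The brightest of the 4 Ptprg probe sets read 4.89 to 5.57 in Flox and 5.19 to 5.53 in Tead1KO, a log2 difference of 0.11 (SE 0.20). In both genes the groups overlapped in every probe set.

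**Figure D2:**
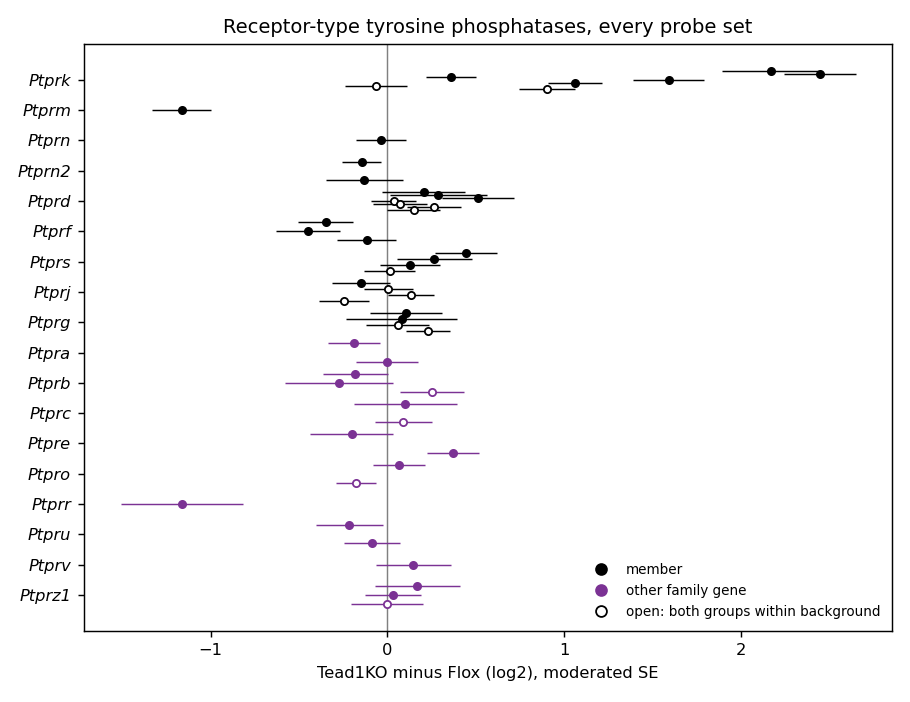
Difference between Tead1KO and Flox means (log2, x axis) for each probe set of the receptor-type phosphatases (rows by gene, black for members and purple for other family genes); bars are moderated standard errors of 3 against 3 arrays, and open points have both group means within background. Ptprk reaches 2.45 to the right, Ptprm and Ptprr lie near -1.16 on the left, and the other genes lie within about 0.5 of 0.

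Of the rest of the family, 9 of 11 listed genes were measured, and 0 of them passed in the limma fit over all genes, where 0.517% of genes passed. An unadjusted p under 0.05 was found for 1 of them, and for 7.41% of all genes. Their median difference was -0.18, beside -0.0074 over all genes. Ptprr, a phosphatase that binds and inactivates MAP kinases, had a difference as large as that of Ptprm. It read 6.85, 7.27 and 7.34 in Flox and 6.15, 6.62 and 5.19 in Tead1KO. The groups did not overlap, but Tead1KO replicate 3 lay far below the other arrays. The log2 difference was -1.17 (SE 0.35, limma adjusted p = 0.348), and it was -0.77 without that array (adjusted p = 0.258) and -0.66 with the hybridization control signal as a covariate (adjusted p = 0.169).

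Ptpru, the other measured MAM-domain member, read 6.04, 6.02 and 6.05 in Flox and 6.01, 6.0 and 5.46 in Tead1KO (difference -0.22, adjusted p = 0.787), so that only Tead1KO replicate 3 stood apart. Ptpra, a widely expressed activator of Src kinases, differed by -0.19 while its close relative Ptpre was near background, and its 2 probe sets differed by -0.20 with overlapping arrays and by 0.37 (4.29, 4.43 and 4.34 in Flox, 4.84, 4.50 and 4.83 in Tead1KO) without overlap. Ptprb, the phosphatase of vascular endothelium, differed by -0.18, and Ptprc, the leukocyte antigen CD45, by 0.10. Ptpro (0.07), Ptprv (0.15) and Ptprz1 (0.17) completed the list. Of the 18 family genes measured, 15 differed by less than 0.5 at their brightest probe set. The other 3 were Ptprk and Ptprm, which were chosen by their differences, and Ptprr.

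**Figure D3:**
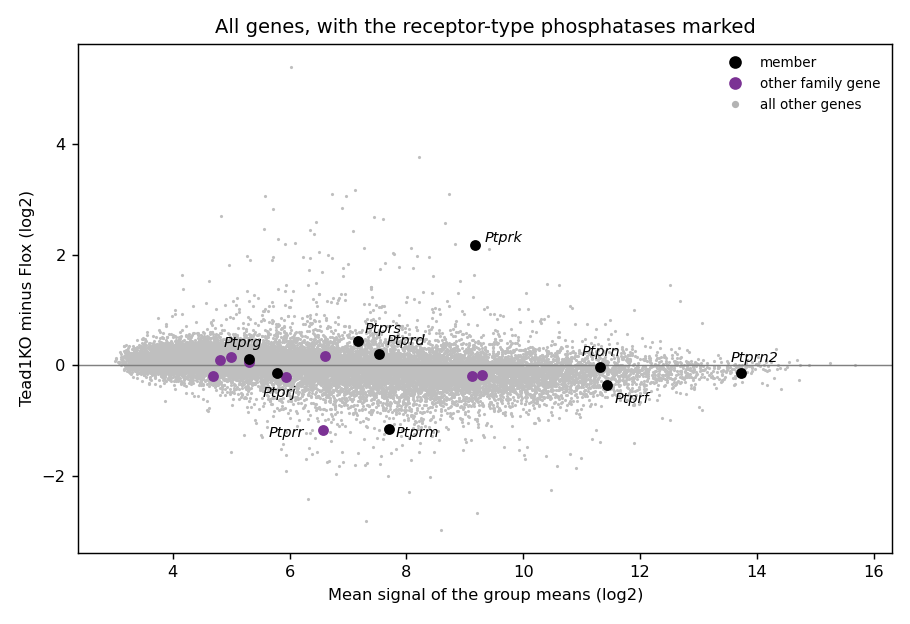
Each point is 1 gene, with the mean of its Flox and Tead1KO means (log2) on the x axis and Tead1KO minus Flox (log2) on the y axis; black marks the members, purple the other family genes and grey all other genes. Ptprk lies at 2.17 and Ptprm at -1.16, outside the bulk of genes of like signal, and the remaining members lie within it.

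Related genes were taken from lists of partners and of other phosphatases. Of 16 measured non-receptor tyrosine phosphatases, 1 rose and 0 fell over all genes, where 0.335% of genes rose and 0.181% fell, and the list median was -0.11. Ptpn3, a phosphatase with FERM and PDZ domains that lies under the plasma membrane, read 7.41, 7.27 and 7.52 in Flox and 9.43, 9.19 and 9.47 in Tead1KO. The groups were far apart and tight, with a log2 difference of 1.96 (SE 0.16, limma adjusted p = 0.00312), or 3.89-fold. Without Tead1KO replicate 1 the adjusted p was 0.0551. Ptpn3 had a single probe set. Ptpn18 had the next smallest p and did not pass (0.55, adjusted p = 0.294).

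Of 22 measured extracellular partners of the family, 1 rose and 0 fell, against the same 0.335% and 0.181% of all genes, and the median was 0.10. Cntn3, a contactin and so of the group of adhesion proteins that Ptprg binds, read 5.19, 5.19 and 4.94 in Flox and 6.29, 6.28 and 5.93 in Tead1KO. The Tead1KO arrays were all higher, by 1.06 (SE 0.17, limma adjusted p = 0.0472). The call rested near the threshold. It ended when Tead1KO replicate 1 was left out (adjusted p = 0.265), when any 1 of the Flox replicates was (0.182, 0.237 and 0.315 for replicates 1 to 3), with median centring (0.110) and when its probe sets were averaged (0.141), the other of which lay within background. Slitrk5, a ligand of LAR-type phosphatases at synapses, differed by 0.49 and did not pass (adjusted p = 0.456).

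In the other lists 0 genes passed in the limma fit, and their counts at an unadjusted p under 0.05 stand beside 7.41% of all genes. Of 10 measured cadherin-catenin and junction proteins, which MAM-domain phosphatases act on, 0 had an unadjusted p under 0.05, and the median was -0.12. Ctnna1, which couples cadherins to actin, differed by -0.38 (adjusted p = 0.725), and the scaffold Afdn by -0.27 (0.778). Of 10 proteases that cut receptor phosphatases, 0 had an unadjusted p under 0.05. Pcsk6 (-0.28, adjusted p = 0.756) and Furin (0.28, adjusted p = 0.766), both proprotein convertases, came closest.

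Of 9 cytoplasmic partners of LAR-type phosphatases, 1 had an unadjusted p under 0.05, the scaffold Caskin1 (0.36, adjusted p = 0.656). Trio differed by -0.36 (0.767). Of 11 insulin and growth factor receptors and adaptors, 2 had an unadjusted p under 0.05, the kinase Fyn (0.58, adjusted p = 0.389) and Met, the hepatocyte growth factor receptor (-1.01, adjusted p = 0.460). For Met, Tead1KO replicate 3 stood at -1.82 from the Flox mean, against -0.80 and -0.40 for replicates 1 and 2. Of 11 granule proteins that accompany Ptprn and Ptprn2, 4 had an unadjusted p under 0.05, 3 lower and 1 higher. The prohormone convertase Pcsk1 differed by -0.63 (adjusted p = 0.0708) and the granin-like Vgf by -0.64 (0.550).

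**Figure D4:**
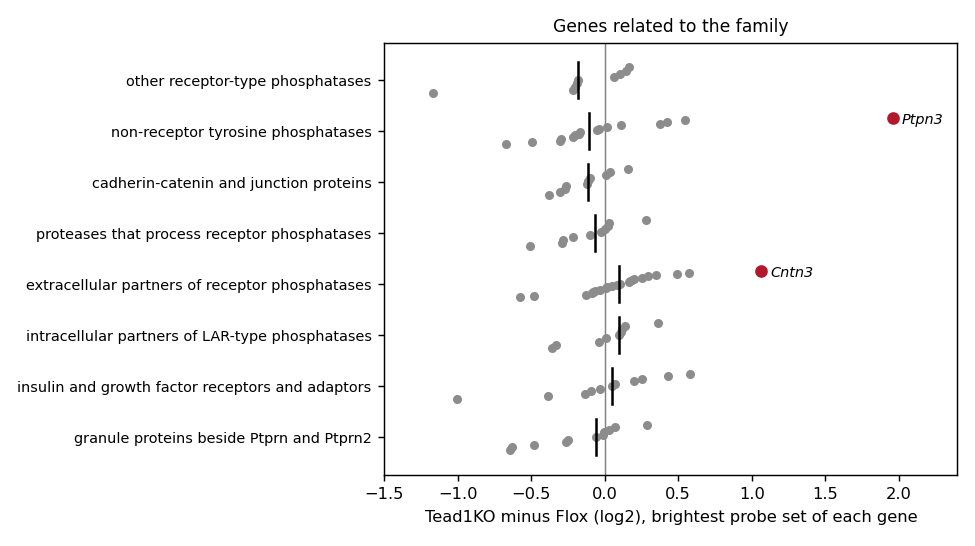
Each point is 1 gene, at its difference between Tead1KO and Flox (log2, x axis), in rows by list; black ticks are list medians and red points passed an adjusted p under 0.05 over all genes. Ptpn3 at 1.96 and Cntn3 at 1.06 are the only red points, and the list medians lie between -0.18 and 0.10.

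Islets are a mixture of cell types, and in such bulk RNA fewer cells of a type and less RNA per cell cannot be told apart. The defining hormones were bright in both groups, with Ins2 near 15.7, Gcg near 14.7, Sst at 14.07 and 14.05 and Ppy at 14.13 and 14.19. Ins2 read 15.67 to 15.71 over the arrays, up to the highest value of all probe sets, so a difference in it may not be visible. Acinar cells, the exocrine cells around islets, varied most. The log2 of the summed signal of their 6 measured markers was 14.27, 16.31 and 16.62 in Flox replicates 1 to 3 and 14.48, 16.49 and 15.70 in Tead1KO replicates 1 to 3, so replicate 1 was low in both groups. On these low arrays Ptprm read 8.36 in Flox and 7.10 in Tead1KO, and the brightest Ptprk probe set 8.72 and 10.35. That Ptprk probe set was highest on the low array of each group. It read 7.64 and 7.92 on the other Flox arrays and 10.11 and 10.32 on the other Tead1KO arrays. The second bright Ptprk probe set (1423277_at) was highest on the low array in Tead1KO (9.07, against 8.93 and 8.52). In Flox it was not (6.46, against 6.55 and 6.17). The part of acinar content in these values was not tested.

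Endothelial cells are known to express Ptprm. The summed signal of their 6 markers was 12.22 to 12.26 in Flox and 12.25 to 12.34 in Tead1KO, which overlap, and 0 of the 6 passed the test. This sum rests mostly on Plvap (means 11.95 in Flox and 11.99 in Tead1KO). None of these markers had a mean over all 6 arrays within background, but Tie1 had a Tead1KO mean within it (4.62, against 4.90 in Flox). The summed signal of the 7 stromal and pericyte markers was 11.45 to 11.81 in Flox and 10.84 to 11.79 in Tead1KO. That of the 6 macrophage markers was 10.77 to 11.36 in Flox and 11.01 to 12.44 in Tead1KO. The brightest of these was C1qa (means 10.27 and 11.34, limma adjusted p = 0.518). The 3 Schwann cell markers (7.11 to 7.38 and 7.03 to 7.70), the 4 duct markers (7.28 to 8.03 and 7.31 to 7.89) and the 3 lymphocyte markers (7.03 to 7.45 and 6.85 to 7.06) also overlapped between the groups. The 6 beta cell markers summed to 16.93 to 16.97 in Flox and 16.74 to 16.95 in Tead1KO, a sum that rests mostly on Ins2 and Iapp. Single beta cell markers stood apart more than the sum, with a list median of -0.47 and 3 of 6 at an unadjusted p under 0.05, all lower. These were Ucn3 (-0.95, limma adjusted p = 0.056), Nkx6-1 (-0.95, adjusted p = 0.0637) and Slc2a2 (-0.82, adjusted p = 0.194), whose groups did not overlap. Over all cell type lists 0 of 48 measured markers passed, and the groups did not overlap in 8 of them (16.7%, against 13.1% of all genes). Besides the beta cell genes these included Cd79a of lymphocytes (-0.85, adjusted p = 0.0725) and, in opposite directions within the stromal list, Dcn (1.11, adjusted p = 0.200) and Acta2 (-0.99, adjusted p = 0.294). All these markers were named after their values were seen. Of the delta cell, duct and lymphocyte lists, 1 gene each had a mean over all 6 arrays within background. The part of any of these cell types in the differences of Ptprk and Ptprm was not tested.

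**Figure D5:**
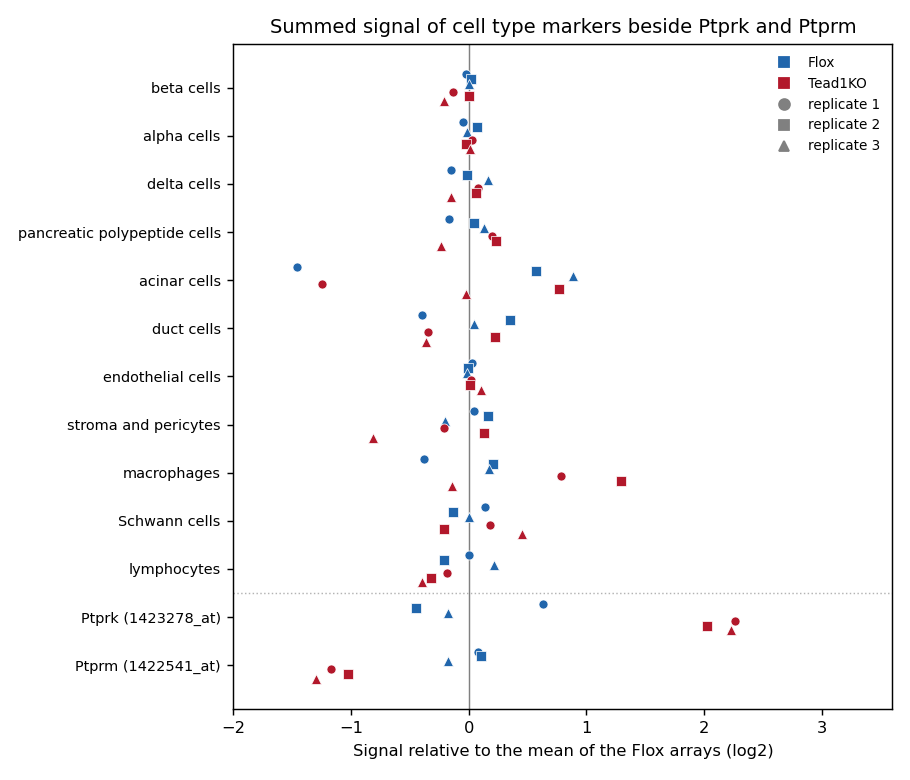
Signal of each array relative to the mean of the Flox arrays (log2, x axis), for the summed markers of each cell type and, under the dotted line, for Ptprk and Ptprm; blue is Flox, red is Tead1KO and the symbol gives the replicate. The marker sums of the groups overlap in each cell type, widely so for acinar cells. The arrays of Ptprk and Ptprm are separate by group, but these genes were chosen by this contrast, so nothing is read from that. A sum follows its brightest genes, and 8 of the 48 single markers were also separate by group.

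The genes most like Ptprk and Ptprm in profile were found by the root mean square difference over the 6 arrays, after each log2 profile was centred on its own mean, among 12530 genes brighter than the median probe set (5.24). Nearest to Ptprk were Pdzrn3, a ubiquitin ligase with PDZ domains (0.276), Gpat3, an enzyme of triglyceride synthesis (0.281), ccdc198 (0.290), the arrestin Arrb1 (0.309) and Crym, a thyroid hormone-binding protein (0.321). Gpat3 lay within background in Flox and was at least 2.95-fold higher in Tead1KO, and the others read higher by 1.94 to 2.44. Gpat3, ccdc198 and Crym had Flox means below 5.24 and so entered the search only through their Tead1KO signal. Nearest to Ptprm were Naip2, an inflammasome sensor (0.0384), Vldlr, a lipoprotein receptor (0.113), Banp (0.116), the kinase Tnik (0.128) and Fam210b (0.130). They differed by -1.14 to -1.03. Naip2 matched Ptprm to within a few hundredths of a log2 unit on average, with 8.23, 8.29 and 8.10 in Flox and 7.06, 7.22 and 6.92 in Tead1KO. Naip2 has close paralogs and the Vldlr probe set carries a suffix for probes that can match several transcripts, so their signals are uncertain. The 6 arrays fall into 2 groups, so this likeness includes the group difference.

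The nearest measured protein-coding genes along the chromosome, looked up after the members' values were seen, did not pass. Beside Ptprk in RefSeq order were Lama2, a laminin chain (0.30, limma adjusted p = 0.772), and Themis, a T cell signalling protein (0.25, adjusted p = 0.775). Beside Ptprm were Themis3 (0.03, adjusted p = 0.970) and the laminin chain Lama1 (-0.03, adjusted p = 0.952), which lay within background in both groups.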

How the data were processed

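RNA of mouse islets was hybridized to Affymetrix whole-genome expression arrays, per the series' design text. Per the submitters' processing notes, the authors used Affymetrix Expression Console, and they deposited a log2 signal for each probe set. The sources used here give neither its version nor how background, normalization and summary values were computed. That values are log2 was judged by their range, 2.75 to 15.7.

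Of 45037 non-control probe sets, 34945 carried 1 gene symbol in the platform annotation, 932 several and 9160 none. The brightest probe set per symbol was used for gene-level fits (18193 genes), and every probe set for the members. The comparison used limma (version 3.58.1, R 4.3.3) with lmFit, eBayes (trend=TRUE) and no covariate, with Benjamini-Hochberg adjustment and a threshold of 0.05. No filter was applied and no pseudocount was needed. The procedure was tested on simulated data with independent noise for each gene and array. That simulation held no outlying array, so it says nothing on calls that depend on single arrays. The members, lists and alternatives were chosen with earlier results of these data known. Named genes were all members and family genes, and, of each list of partners and other phosphatases, those called and the 2 with the smallest p. Single cell type markers were named outside this rule. The 5 genes nearest in profile to Ptprk and to Ptprm were also named. Listed genes without a single-symbol probe set were not analysed here.

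Alternatives were the omission of dim or of _x_at and _s_at probe sets, quantile normalization, median centring, other variance settings, averaged probe sets, the replicate number as a block, the hybridization controls as a covariate, a threshold of 0.10, and each array left out.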

Additional observations from a re-analysis of the deposited data

How the results depend on the processing

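The difference of Ptprk lay between 1.94 and 2.48, and that of Ptprm between -1.25 and -1.10, over the omission of each array. Ptprk was 1.21 when its 7 probe sets, most of them dim, were averaged. Under the other settings it lay between 1.95 and 2.30, and Ptprm between -1.23 and -1.06. The median of the other members (-0.11 to 0.046 without single arrays) and the count of 0 calls among the other family genes did not change beyond their spread. Tead1 differed by -0.87 to -0.10 without single arrays and by -0.55 to -0.019 under the other settings, nearest to 0 with the hybridization control signal as a covariate.

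The number of genes called was 94, but 12 to 301 without single arrays (12 without Tead1KO replicate 1, 301 without Tead1KO replicate 2, 179 without Tead1KO replicate 3, and 18 to 22 without a Flox array), 153 with quantile normalization, 58 with median centring and 242 once control signal entered as a covariate. The number of probe sets called was 81, but 4 to 239 without single arrays, 143 with quantile normalization, 42 with median centring, 268 with the hybridization controls and 143 at a threshold of 0.10. The cause was not tested.

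Whether the replicate numbers pair the arrays was not settled, as deviations within groups of 3 arrays say little on this. Same-numbered arrays had correlations of their deviations of 0.0556, 0.303 and -0.175. The correlations of differently numbered arrays lay between -0.389 and 0.330. With the replicate number as a block 97 genes were called, Ptprm was not among them, and Cntn3 had a limma adjusted p of 0.0502. Probe sets near background limit what can be seen of the dimmer members.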
